A study of Mus musculus with 36 samples.

Results

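IsomiRs that begin 1 base after the annotated first base of their miRNA (+1 forms) were examined in small RNA libraries of sorted mouse small-intestinal epithelial cells. The deposited table has an entry of its own for such reads, and 403 of its 2670 entries carry the +1 suffix. The 191 members are the entries that reached a value of 10 in at least 2 libraries, after 19 entries of the mir-51 group had been left out. Members were thus chosen by their values in these libraries, so the levels that admitted a member are given only as a description. Just inside the limit lay the +1 forms of miR-23a-3p, miR-664-5p and miR-669c-5p, each with a second-highest value of 10.3. Just outside lay miR-210-3p at 9.85, miR-3068-5p at 9.05 and miR-128-1-3p at 8.94. Each member was expressed as a ratio to the annotated form, the entry of the same name without the suffix. A value in the table is a read number divided by 1 scale factor of its library, so this ratio does not depend on that factor.

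The samples were small-intestinal epithelial cells of strain C57BL6/2J mice, separated by flow cytometry and prepared with the TriLink CleanTag ligation kit. The 31 libraries fell into 8 populations: CD24Low with 4 libraries, Lgr5 High with 2, Sox9 High with 4, Sox9 Low with 4, Sox9 Negative with 4, Paneth with 6, goblet with 4 and Tuft with 3. Sample number 3 of each Sox9 fraction carried the code HFD in its label and the other Sox9 libraries the code chow. The comparisons ask whether the start site that a miRNA takes depends on the population. Lgr5 marks intestinal stem cells. Paneth cells release antimicrobial proteins, goblet cells release mucus and Tuft cells are chemosensory. In reporter mice, low Sox9 marks stem cells and high Sox9 marks enteroendocrine cells, but the labels do not say how Sox9 or CD24 was read in the sort. Nothing in the labels states that replicates came from different animals. The p-values given here therefore cover only sample-to-sample spread, which may be technical.

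A miRNA is cut from its hairpin by Drosha and then Dicer. Drosha sets the 5′ end of the arm on the 5′ side (5p), and Dicer sets the 5′ end of the arm on the 3′ side (3p). Argonaute pairs a target mainly through the seed, the bases counted from the second base of the miRNA, so a start 1 base later moves the seed by 1 base along the same molecule.

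The sequences of 147 of the 191 members were matched by name to RefSeq mature miRNAs of build GRCm38.p6, and these were 133 distinct sequences. The submitters' notes name the build mm9, so the start that the table counts from may differ from the RefSeq start for some entries. The capitals mark the seed (bases 2 to 8 of each form). The first set holds members whose +1 form reached a large ratio, with miR-203-3p at chr12:112130927-112130948 (+), miR-10a-5p at chr11:96317186-96317208 (+) and miR-30a-3p at chr1:23272315-23272336 (+).

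miR-203-3p, annotated: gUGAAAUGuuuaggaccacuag
miR-203-3p, +1: uGAAAUGUuuaggaccacuag
miR-10a-5p, annotated: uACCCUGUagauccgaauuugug
miR-10a-5p, +1: aCCCUGUAgauccgaauuugug
miR-30a-3p, annotated: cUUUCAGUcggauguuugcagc
miR-30a-3p, +1: uUUCAGUCggauguuugcagc

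The second set holds close relatives that share both seeds but not the ratio. These are miR-192-5p at chr19:6264857-6264877 (+) with miR-215-5p at chr1:185313610-185313630 (+), and miR-200b-3p at chr4:156055685-156055706 (-) with miR-200c-3p at chr6:124718324-124718346 (-).

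miR-192-5p, annotated: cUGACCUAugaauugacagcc
miR-192-5p, +1: uGACCUAUgaauugacagcc
miR-215-5p, annotated: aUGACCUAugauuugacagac
miR-215-5p, +1: uGACCUAUgauuugacagac
miR-200b-3p, annotated: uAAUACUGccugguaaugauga
miR-200b-3p, +1: aAUACUGCcugguaaugauga
miR-200c-3p, annotated: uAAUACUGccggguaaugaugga
miR-200c-3p, +1: aAUACUGCcggguaaugaugga

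The third set holds members with a low ratio in most populations that was larger in CD24Low and Lgr5 High libraries: let-7g-5p at chr9:106178846-106178867 (+) and miR-27b-3p at chr13:63300760-63300780 (+).

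let-7g-5p, annotated: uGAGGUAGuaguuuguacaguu
let-7g-5p, +1: gAGGUAGUaguuuguacaguu
miR-27b-3p, annotated: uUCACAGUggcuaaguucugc
miR-27b-3p, +1: uCACAGUGgcuaaguucugc

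Depth ranged between 475678 reads in Tuft 3 and 30958439 reads in CD24Low 4, and the 4 CD24Low and 2 Lgr5 High libraries were the deepest, with at least 13348905 reads each. The lowest read number listed in a library was 10 to 12, so a value of 0 stands for up to 9 reads. All 8 epithelial miRNAs of a marker list were found in every population, and their summed value was at least 527266 in each library. Stromal and muscle miRNAs summed to 653 to 2188 in CD24Low libraries, 32.4 to 51.9 in Lgr5 High libraries and 651 to 998 in Sox9 Negative libraries, against 114 to 557 elsewhere. Leukocyte miRNAs summed to between 92.9 and 10369 in CD24Low libraries and between 37.6 and 2694 in Paneth libraries. They summed to 144 and 181 in the Lgr5 High libraries and to at most 216 in any other library. Endothelial miRNAs summed to 77.0 to 212 in CD24Low libraries and to 54.1 and 80.2 in Lgr5 High libraries, against 0 to 119 in Sox9 High and Sox9 Low libraries and 0 in every Sox9 Negative, Paneth, goblet and Tuft library. The part of these other cells in the results was not tested. The marker lists do not separate the epithelial lineages from each other, so the sort labels were not checked beyond epithelium.

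Lane and label format followed population almost throughout. Both Lgr5 High libraries were from lane 8, Paneth 1 to 4 from lane 6, Sox9 Low from lane 1, Sox9 High from lane 2 except sample 3 from lane 1, Sox9 Negative 1 and 2 from lane 5, and Sox9 Negative 3 and 4 from lane 4. The CD24Low libraries had a label format of their own, and Paneth 5 and 6, goblet and Tuft libraries shared another. CD24Low and Lgr5 High cannot be told apart from a label format or lane that no other population has. Goblet and Tuft libraries share their format with each other and with Paneth 5 and 6, but with no other population.

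The +1 forms of all 191 members made up 2.04% to 5.36% of the reads of a library. The means were 4.66% in CD24Low, 5.34% in Lgr5 High, 3.63% in Sox9 High, 2.89% in Sox9 Low, 2.47% in Sox9 Negative, 3.12% in Paneth, 2.94% in goblet and 3.80% in Tuft libraries. A single member made up most of it. The +1 form of miR-192-5p, an abundant miRNA of intestinal epithelium, held on average 66.7% of the members' reads, from 49.9% to 85.2% over the 31 libraries. Its own value averaged 82445 (from 42598 to 131081), against 548025 for the annotated form.

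Of the 191 members, 97 were 5p arms, 88 were 3p arms and 6 had no arm in the name. The annotated form was listed in every library for 91 members and at 0 in at least 1 library for 95. The other 5, namely miR-29a-3p, miR-29b-1-3p, miR-29b-2-3p, miR-29c-3p and miR-101b-5p, had no annotated entry, so no ratio exists for them. A member was listed in a median of 16 libraries, and 19 were listed in all 31. Hairpin copies that give 1 mature sequence, such as let-7a-1 and let-7a-2, or miR-26a-1 and miR-26a-2, are separate members but do not count as independent observations.

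Over the 91 members whose annotated form was listed everywhere, the ratio of the +1 form was small in most and large in a few. The mean over population means was 0.1 or more in 9 members, 0.01 to 0.1 in 54 and below 0.01 in 28, with a median of 0.0161. The lowest was miR-107-3p at 0.00106 and the highest miR-203-3p at 0.948. The median was 0.0138 for the 55 members of the 5p arm, of which 5 reached 0.1, and 0.0195 for the 35 members of the 3p arm, of which 4 reached 0.1. The +1 form was above the form that starts 1 base earlier (-1) in 79 of 91 and above the form that starts 2 bases later (+2) in 90 of 91. Members were admitted by their +1 values, while the -1 and +2 forms met no such rule. These 2 counts are therefore descriptions and do not show that +1 starts prevail in general. The members with a higher ratio at -1 included miR-101b-3p (mean ratio of 0.0775 at +1 and 0.437 at -1) and miR-423-3p (0.0196 and 0.159). Another was miR-375-3p, a miRNA of endocrine cells, with 0.0188 at +1 and 0.0644 at -1.

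**Figure D1:**
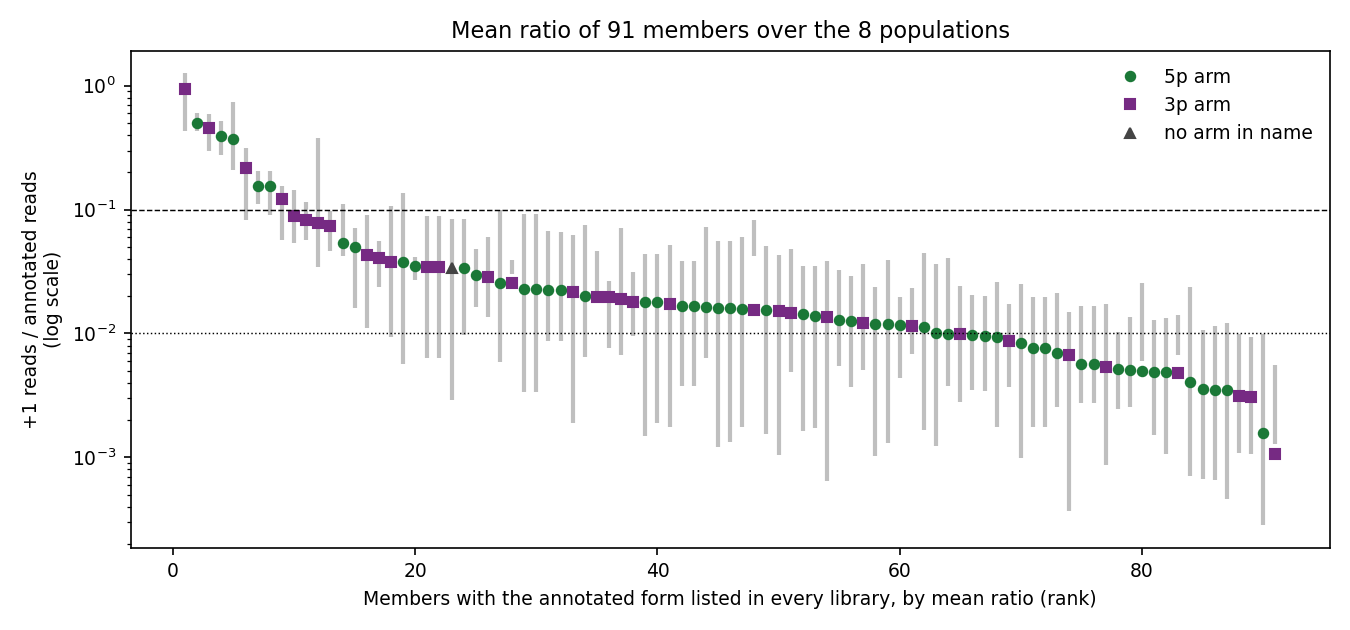
Mean ratio of the +1 form to the annotated form on a log axis for the 91 members whose annotated form was listed in every library, ranked from high to low. Circles are 5p arms, squares are 3p arms and the triangle has no arm in its name. Grey bars run between the lowest and highest population mean above 0, and the dashed and dotted lines are ratios of 0.1 and 0.01. 9 members lie on or above the dashed line and 28 below the dotted line.

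In 10 hairpins both arms were members with an annotated form in every library. The mean ratio was higher on the 3p arm in 9 of them, and miR-151 (0.0195 on the 3p arm and 0.0201 on the 5p arm) was the other one. miR-30a had 0.456 on the 3p arm and 0.0129 on the 5p arm, and the 3p ratio was the higher one in 31 of 31 libraries. miR-194-1 had 0.215 and 0.0144, and let-7d had 0.0731 and 0.0127, in the same order. The order was weak in miR-423, where the 3p ratio was the higher one in 20 of 31 libraries, and in miR-30e with 18 of 31. These counts take a +1 form that was not listed as a ratio of 0. The +1 forms of both miR-423 arms were at 0 in some library, and that of miR-30e-3p was listed in 25 libraries. The abundance of both arms is given for miR-30a and miR-200a only, and its part in the order was not tested. The annotated 3p form was the less abundant one in miR-30a, with mean values of 673 for the 3p arm and 11538 for the 5p arm, and the more abundant one in miR-200a, with 65404 and 1392.

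miR-203-3p, known from skin as a promoter of differentiation, had nearly as many +1 reads as annotated reads. Its ratio was 1.37, 1.27, 1.20 and 1.20 in goblet libraries, while the Sox9 fractions had 0.805 to 0.889 (High), 0.967 to 1.26 (Low) and 0.839 to 0.911 (Negative). It was 0.894 to 0.973 in CD24Low libraries, 0.952 and 1.12 in Lgr5 High libraries, and 0.626, 1.06 and 1.39 (lowest, median, highest) in Paneth libraries. The Tuft libraries had 0.387, 0.166 and 0.734, from 26 to 174 reads of the +1 form and 157 to 274 of the annotated form. Of the Tuft values, 2 lay below every other library and the remaining one overlapped the Paneth range. The ratio was lower in Tuft libraries than in the mean of the other 7 populations, by a log2 difference of -1.48 (SE 0.233, adjusted p = 1.239e-05, limma with Benjamini-Hochberg adjustment over all 148 offset entries tested).

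miR-10a-5p and miR-10b-5p come from Hox gene clusters. The +1 form of miR-10a-5p had a mean ratio of 0.499, with libraries between 0.343 and 0.692. Its population means spanned 0.49 on the log2 scale, which did not pass the test across the 8 populations (adjusted p = 0.2214). The ratio of miR-10b-5p was 0.154 on average. It was listed at 0 in Tuft 3 and was not among the members tested.

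miR-30a-3p, the passenger arm of its hairpin, had a mean ratio of 0.456, with libraries between 0.131 and 0.844. miR-183-5p, a miRNA of sensory cells, had a mean ratio of 0.393 and a range of 0.235 to 0.586. Population means of miR-183-5p were 0.476 in CD24Low, 0.274 in Paneth and 0.519 in Tuft libraries. Across populations the adjusted p was 0.004753 for miR-30a-3p and 1.535e-05 for miR-183-5p, but their population means spanned 0.96 and 0.93 on the log2 scale, below the difference of 1 that a call needed.

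miR-192-5p and the miR-194 genes lie in the clusters that are characteristic of gut epithelium. The ratio of miR-192-5p was 0.240, 0.221, 0.211, 0.236, 0.162 and 0.170 in Paneth 1 to 6, against 0.108 and 0.112 in the Lgr5 High libraries. Sox9 High libraries had 0.193, 0.177, 0.190 and 0.187, and the libraries of the remaining populations lay between 0.116 and 0.177. The Lgr5 High values were the lowest of all libraries, and Paneth 1 to 4 the highest. The population means spanned 0.89 on the log2 scale (adjusted p = 6.133e-05), which again was below the size for a call. miR-194-1-3p had a mean ratio of 0.215 and a called range of 1.12 (adjusted p = 1.979e-04), but it was listed at 0 in Tuft 3 and Tuft 4, and its floor (the ratio that the least deep library could show) was 0.125. miR-194-2-3p had a mean ratio of 0.122 and no call (adjusted p = 0.5528).

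miR-1839-5p had a mean ratio of 0.369 and no call across populations (adjusted p = 0.3949). Its goblet 4 value of 1.71 came from 29 reads of the +1 form and 17 of the annotated form. miR-200b-3p, of the family that keeps cells epithelial, had a mean ratio of 0.0889, with population means of 0.145 ± 0.0138 in Lgr5 High (SD, n = 2), 0.121 ± 0.0053 in CD24Low (SD, n = 4) and 0.0538 ± 0.00575 in Tuft libraries (SD, n = 3). Its range of 1.43 was called (adjusted p = 1.655e-08). miR-320-3p, whose hairpin forms without Drosha, had a mean ratio of 0.0821 and a range just short of the size for a call (adjusted p = 3.86e-05).

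**Figure D2:**
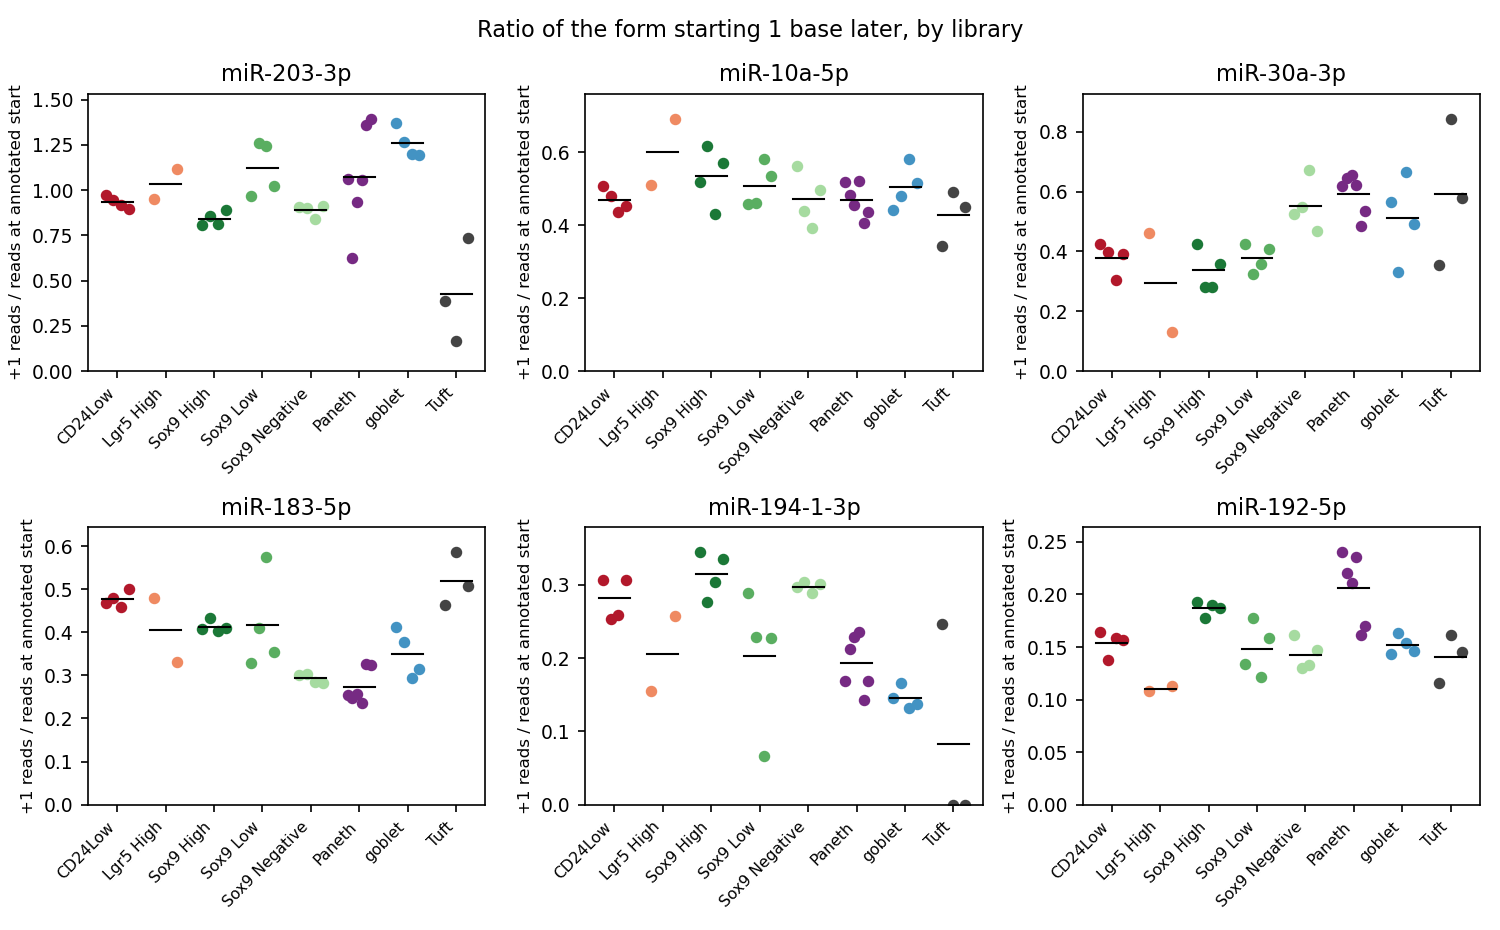
Ratio of the +1 form to the annotated form in every library for 6 of the members with the largest ratios: miR-203-3p, miR-10a-5p, miR-30a-3p, miR-183-5p, miR-194-1-3p and miR-192-5p. Each point is a library and each bar the mean of its population. The Tuft points of miR-203-3p (0.387, 0.166 and 0.734) lie at the low end, and the points of miR-192-5p stay between 0.108 and 0.240.

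In 19 members the +1 form was above the annotated form in at least 1 library. The +1 form of miR-140-3p, a miRNA known from cartilage, exceeded the annotated form in 29 libraries, by ratios of 1.33 to 4.97. Its ratios were 4.00, 3.51, 4.97 and 3.57 in CD24Low libraries and 4.35 and 2.27 in Lgr5 High libraries, and its annotated form was listed at 0 in Tuft 3 and Tuft 4. The mean value was 1519 for the +1 form and 645 for the annotated form. miR-3096-5p exceeded its annotated form in 28 libraries (0.625 to 3.02 over all), miR-582-3p in 17, miR-361-3p in 15, miR-203-3p in 12 and miR-1943-5p in 9. For the others this rested on few libraries, as for miR-183-3p in 7 (up to 8.10), miR-330-3p and miR-363-3p in 5 each, and miR-342-5p and miR-2137 in 2 each. The highest single ratio was 15.1, for miR-363-3p in Lgr5 High 2. These are descriptions, since the annotated forms of most of them were missing from some library.

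Close relatives with the same seed had unlike ratios. The pairs were picked after their values had been seen, so the counts are descriptions. The ratio of miR-192-5p was above that of miR-215-5p in 31 of 31 libraries, at 0.155 against 0.00354 on average, a 43.9-fold difference. The libraries ranged between 0.108 and 0.240 for miR-192-5p and between 0.000486 and 0.0117 for miR-215-5p, and the ranges did not overlap. Both are 21 bases long and differ at C1A, A12U and C20A (base of miR-192-5p, position from the 5′ end, base of miR-215-5p), so the base that the +1 form lacks is one of the differences. miR-200b-3p was above miR-200c-3p in 31 of 31 libraries, by 6.59-fold on average. Both +1 forms were listed in 29 libraries, and miR-200c-3p entered the count and the mean at 0 in the others. This pair differs at U11G and A22G and miR-200c-3p is 1 base longer, so they share the first base and the shifted seed.

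The ratio of miR-10a-5p was above that of miR-10b-5p in 31 of 31 libraries, by 3.23-fold, with both listed in 30. The pair differs only at U12A. miR-30a-3p was above miR-30e-3p in 31 of 31 libraries by 10.5-fold, with the single difference G18A, and miR-30e-3p was listed in 25 libraries. For miR-200a-3p and miR-141-3p, which share a seed too, the count was 31 of 31 with 1.88-fold and the differences C17A and U22G. Both were listed in 29 libraries. In other pairs the order did not hold in every library. let-7g-5p was above let-7b-5p in 28 of 31 libraries, which were all 28 that listed both +1 forms. The order was mixed for miR-26a-1-5p, which was above miR-26b-5p in 18 of 31 libraries and in 13 of the 26 that listed both. How the counting split reads between near-identical miRNAs is not given in the sources used here.

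**Figure D3:**
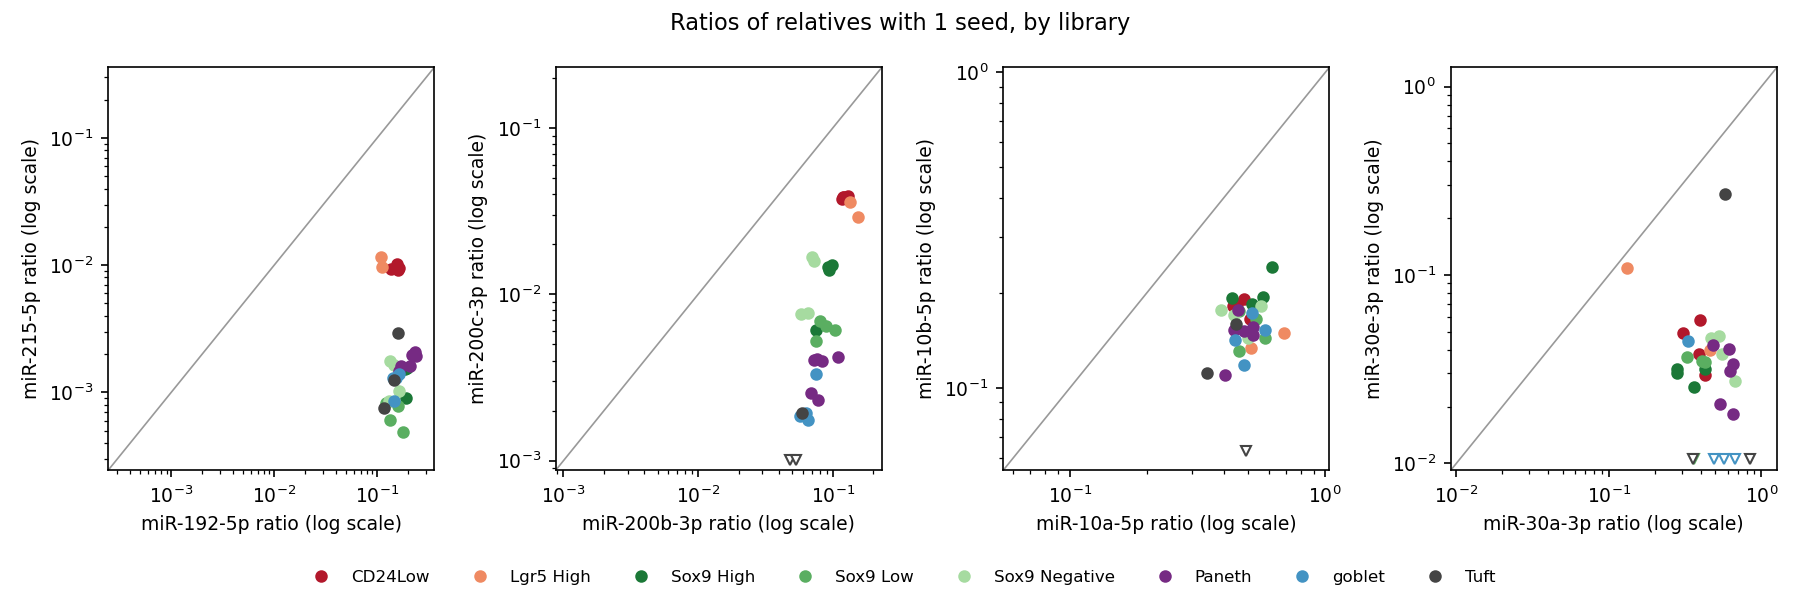
Ratios of the +1 form in the 31 libraries for 4 pairs of relatives on log axes: miR-192-5p and miR-215-5p, miR-200b-3p and miR-200c-3p, miR-10a-5p and miR-10b-5p, and miR-30a-3p and miR-30e-3p. Open triangles at the bottom are libraries in which the second member was listed at 0, and the grey line is equality. All 31 points lie on the side of the first-named member in each pair.

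Of the 191 members, 57 could be tested across the 8 populations. Of these, 39 (68.4%) were called by limma's F-test, at an adjusted p below 0.05 with population means spanning at least 1 on the log2 scale. Among all 148 offset entries tested the share was 61.5%, so the members' share lay near that of offset entries in general. Of the 57, 7 stood above their floor only in CD24Low or Lgr5 High libraries, so they could differ only there, and 3 of them are among the 39. The widest spans were those of miR-200c-3p at 4.41, miR-215-5p at 4.02, miR-141-3p at 3.89, let-7f-2-5p at 3.82, let-7b-5p at 3.79, let-7g-5p at 3.78, miR-194-1-5p at 3.62, let-7f-1-5p at 3.49 and the copies of miR-26a-5p at 3.43. Of these, only miR-215-5p and miR-26a-5p were listed in every library. In a bulk sample, another mix of cells and another ratio within the same cells cannot be told apart. A ratio also moves when the annotated form changes.

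**Figure D4:**
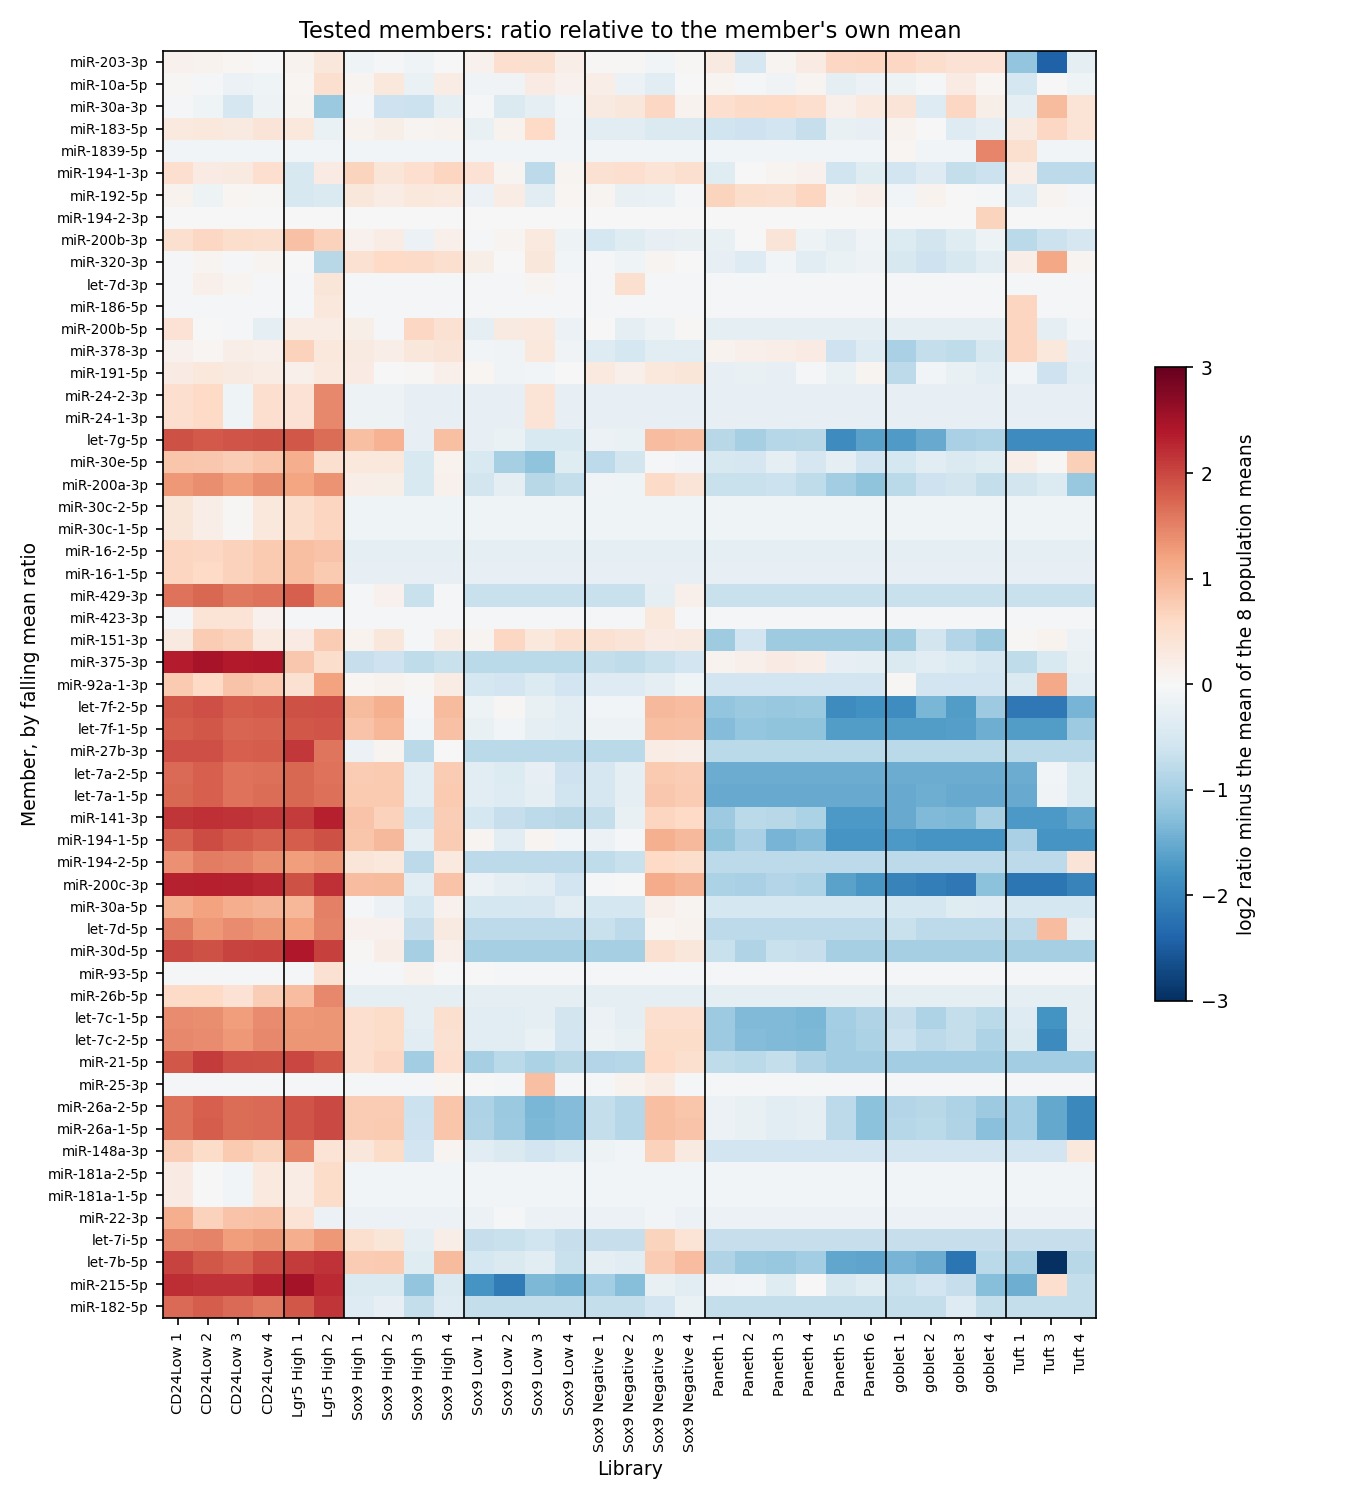
Log2 ratio of the +1 form to the annotated form for the 57 tested members (rows, by falling mean ratio) in the 31 libraries (columns by population), each row set relative to the mean of its 8 population means on a colour scale that ends 3 above and 3 below. The CD24Low and Lgr5 High columns are above the row mean for most members, and the Paneth, goblet and Tuft columns below it.

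In CD24Low libraries the ratio was higher in 25 of 57 members and lower in 0 by limma (0 lower also at an unadjusted p below 0.05), against 23% higher and 0.676% lower of all entries tested. With the median of all entries subtracted in each library the split was 17 higher and 3 lower, and with the members' own median subtracted it was 4 higher and 19 lower. The median log2 difference from the other 7 populations was 0.79 over the members and 0.24 over all entries. The ratio of miR-375-3p was 0.0696, 0.0747, 0.0701 and 0.0717 in the CD24Low libraries, against 0.0238 and 0.0197 in Lgr5 High libraries and at most 0.0161 in the other 25. The CD24Low values did not overlap with any other population, and the log2 difference was 2.74 (SE 0.0816, adjusted p = 4.529e-20). miR-200c-3p had 0.0383, 0.0392, 0.0387 and 0.0374, with a difference of 2.63 (SE 0.214, adjusted p = 7.219e-11), and miR-215-5p had 0.00957, 0.00934, 0.00923 and 0.0102, with a difference of 2.53 (SE 0.221, adjusted p = 2.369e-10). For both of these miRNAs the Lgr5 High libraries came next or overlapped.

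In Lgr5 High libraries the ratio was higher in 29 of 57 members and lower in 0 by limma (3 at an unadjusted p below 0.05), against 27% higher and 0.676% lower of all entries tested. The calls of miR-16-2-5p and miR-26b-5p had their ratio above the floor only in CD24Low and Lgr5 High libraries, and 27 are left without them. Subtracting the median of all entries gave 16 higher and 5 lower, and subtracting the members' median 5 higher and 16 lower. The ratio of miR-215-5p was 0.0117 and 0.00976, against 0.000486 to 0.00292 in the libraries of the 6 populations other than CD24Low. Its log2 difference was 2.71 (SE 0.300, adjusted p = 3.139e-08). miR-30d-5p, of the miR-30 family, rose by 2.55 (SE 0.260, adjusted p = 7.341e-09) with a mean ratio of 0.0392, and miR-141-3p by 2.53 (SE 0.292, adjusted p = 6.396e-08) with a mean ratio of 0.0428. With 2 libraries in this group, the spread rests largely on that of the other populations.

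Of the miRNA families counted, the let-7 family held the most called members in these 2 populations. The shares of all entries called higher, 23% in CD24Low and 27% in Lgr5 High, stand beside the counts that follow. After subtraction of the members' median the called family members kept their direction except miR-30a-5p in CD24Low and miR-148a-3p in Lgr5 High. Over all members, only 4 in CD24Low and 5 in Lgr5 High were still called higher. Of 11 tested let-7 and miR-98 members, which restrain growth-promoting genes, 10 were higher in CD24Low and 10 in Lgr5 High libraries. The ratio of let-7g-5p was 0.0857, 0.0819, 0.0838 and 0.0852 in CD24Low libraries and 0.0828 and 0.0733 in Lgr5 High libraries, against 0.0426, 0.0471, 0.0190 and 0.0426 in Sox9 High libraries and 0.00706 to 0.0120 in goblet libraries. All 6 of its CD24Low and Lgr5 High values lay above those of the other 25 libraries. The miR-200 family had 4 of 6 tested members higher in CD24Low libraries and 4 of 6 in Lgr5 High libraries, the gut-enriched miR-192, miR-215 and miR-194 group 3 of 6 and 3 of 6, and the miR-30 family 2 of 6 and 2 of 6, which is near the share of all entries. In the miR-26 family both copies of miR-26a-5p were higher in both populations. Its other member, miR-26b-5p, had mean ratios of 0.0240 in CD24Low and 0.0366 in Lgr5 High libraries. Its libraries in the other 6 populations all lay below its floor of 0.0130, with population means of at most 0.00623, so it could be called only in CD24Low and Lgr5 High, and its call in Lgr5 High is not counted here. The 3 tested members of the miR-17 and miR-92 clusters, known for driving proliferation, had log2 differences of -0.06 to 0.87 in CD24Low and -0.06 to 0.94 in Lgr5 High libraries, below the size for a call. miR-27b-3p had 0.0539, 0.0539, 0.0488 and 0.05 in CD24Low libraries, with log2 differences of 2.13 both there (SE 0.142) and in Lgr5 High libraries (SE 0.193).

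The difference extended over most of the abundant members. Among the 38 members whose annotated form had a mean value of at least 10000, the 6 CD24Low and Lgr5 High libraries lay above all other 25 libraries in 29. These 6 libraries were also the deepest, with 13348905 to 30958439 reads, against 475678 to 9229136 in the other 25. The part of depth in the result was not tested. The count of 29 takes an unlisted +1 form as 0, as for 22 of the 38 in Tuft 1 and in Tuft 3. It counts hairpin copies separately, and no such count was made over all offset entries. The median ratio over these 38 members was 0.0335 ± 0.000648 in CD24Low libraries (SD, n = 4) and 0.0297 and 0.0366 in the 2 Lgr5 High libraries. It was 0.0110 ± 0.00316 in Sox9 High, 0.00604 in Sox9 Low, 0.0102 in Sox9 Negative, 0.00418 in Paneth and 0.00305 in goblet libraries. Tuft libraries had 0, 0 and 0.00148. The 18 members listed in every library showed a smaller separation, with a median ratio of 0.0538 ± 0.00189 in CD24Low libraries and 0.0493 in Lgr5 High libraries, against 0.0219 in goblet and 0.0331 in Sox9 High libraries at the ends of the other populations.

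The -1 forms of the same 38 miRNAs had median ratios of 0.00319 in CD24Low and 0.00195 in Lgr5 High libraries, and 0.00344 in Paneth 1 to 4, against 0.00109 in Sox9 High and 0.000610 in Sox9 Low libraries. Paneth 1 to 4 had a median +1 ratio of 0.00447 to 0.0048, so their -1 ratio was among the largest while their +1 ratio was not, and Paneth 5 and 6 had a mean -1 median of 0.000296. The members' median stood 1.31 above that of the other 7 populations in CD24Low and 1.29 in Lgr5 High on the log2 scale, while the median of all 148 entries stood 0.93 and 0.92 above. With the members' median subtracted, 24 of the 25 CD24Low members and 25 of the 29 Lgr5 High members kept their direction, and 4 and 5 were still called. miR-30a-5p changed direction in CD24Low, and miR-24-1-3p, miR-24-2-3p, miR-16-2-5p and miR-148a-3p did so in Lgr5 High.

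**Figure D5:**
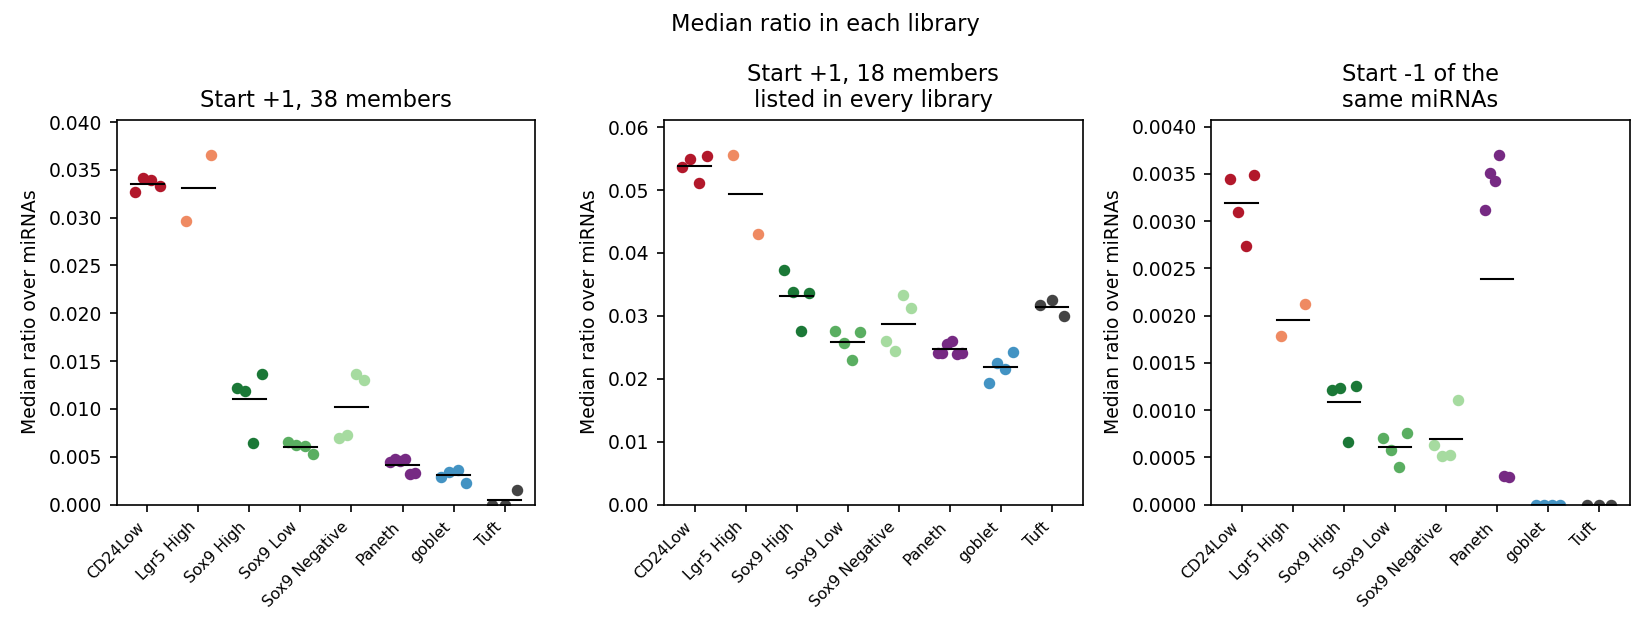
Median ratio per library in 3 panels: the +1 forms of 38 members whose annotated form had a mean value of at least 10000, the +1 forms of the 18 members listed in every library, and the -1 forms of the same miRNAs as in the first panel. Points run by sample number within a population and lines are population means. In the first panel CD24Low libraries lie between 0.0327 and 0.0341, and goblet libraries between 0.00231 and 0.00359.

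Paneth, goblet and Tuft libraries lay at the low end of the median ratio over the 38 abundant members. For Tuft this involved +1 forms listed at 0, namely 22, 22 and 15 of the 38 in Tuft 1, 3 and 4. Over the 18 members listed in every library, the median ratio averaged 0.0314 in Tuft libraries. That was above goblet (0.0219), Paneth (0.0247), Sox9 Low (0.0259) and Sox9 Negative (0.0287). Here and below, the mean of the other 7 populations includes CD24Low and Lgr5 High, where the members' median ratio was highest. A lower call is therefore relative to a mean that these 2 populations raise. In Paneth libraries 13 of 57 members were lower and 0 higher by limma (2 higher at an unadjusted p below 0.05), against 12.2% lower and 3.38% higher of all entries. The ratios of let-7a-1-5p averaged 0.00379 ± 0.00021 (SD, n = 6), against 0.0386 ± 0.00171 in CD24Low libraries (SD, n = 4), and its log2 difference from the other 7 was -1.74 (SE 0.173, adjusted p = 6.679e-09). The copy let-7a-2-5p differed by -1.71, and miR-194-1-5p by -1.60 (SE 0.169, adjusted p = 1.601e-08). Of 11 tested let-7 members 8 were lower in Paneth libraries. Within the Paneth group, Paneth 5 and 6 lay below all of Paneth 1 to 4 in 31 of the 38 abundant members, a count not made over all offset entries. In goblet libraries 14 members were lower and 0 higher (3 higher at an unadjusted p below 0.05), against 11.5% lower and 0% higher of all entries. The largest falls were miR-200c-3p at -2.12 (SE 0.214, adjusted p = 1.134e-08), miR-194-1-5p at -2.01 (SE 0.199, adjusted p = 1.056e-08) and let-7f-1-5p at -1.85 (SE 0.172, adjusted p = 5.656e-09).

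In Tuft libraries 13 members were lower and 0 higher by limma (4 higher at an unadjusted p below 0.05), against 14.9% lower and 5.41% higher of all entries. The +1 form of let-7g-5p was listed at 0 in all 3 Tuft libraries, in which the annotated form had 1800 to 2813 reads, and they entered the test at its floor of 0.00611. Its log2 difference was -2.17 (SE 0.243, adjusted p = 7.001e-08), and that of let-7f-2-5p -2.17 (SE 0.227, adjusted p = 3.39e-08). miR-200c-3p, listed at 0 in 2 of 3 Tuft libraries, differed by -2.41 (SE 0.242, adjusted p = 2.749e-08). Tuft libraries were the least deep, and differences that involve a floor depend on it. After subtraction of the members' median, all 13 Paneth, 14 goblet and 13 Tuft members kept their direction, and 2, 7 and 9 were still called lower, while 2 members were called higher in each of the 3 populations.

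Among the 3 Sox9 fractions fewer members were called. Against the other 7 populations, no member was called in Sox9 High or in Sox9 Negative libraries by limma with the floor. Without the floor, at a pseudocount of 1 or 10, 16 or 9 of 91 members were called in Sox9 High, and 13 in Sox9 Negative at either. Leaving out Sox9 High 3 gave 3 in Sox9 High. The shares of all entries called higher and lower were 1.35% and 8.11% for Sox9 High, and 8.11% and 0.676% for Sox9 Negative. At an unadjusted p below 0.05 the counts were 14 higher and 10 lower in Sox9 High, and 7 higher and 19 lower in Sox9 Negative. In Sox9 Low libraries 5 members were lower and 0 higher (2 higher at an unadjusted p below 0.05), against 6.08% lower and 1.35% higher of all entries. They were led by miR-215-5p at -1.89 (SE 0.221, adjusted p = 2.065e-07), miR-26a-2-5p at -1.34 (SE 0.261, adjusted p = 2.991e-04) and miR-26a-1-5p at -1.33. With the members' median subtracted the split in Sox9 Low was 1 higher and 1 lower.

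Between Sox9 High and Sox9 Low, 6 of 57 members were higher in Sox9 High and 0 lower by limma (0 lower also at an unadjusted p below 0.05), against 4.05% higher and 6.08% lower of all entries. The ratio of miR-26a-1-5p was 0.00875, 0.00881, 0.00333 and 0.00919 in Sox9 High libraries, against 0.00274, 0.0024, 0.00201 and 0.00209 in Sox9 Low libraries, and the groups did not overlap. Its log2 difference was 1.60 (SE 0.344, adjusted p = 0.002268). miR-141-3p rose by 1.13 (SE 0.282, adjusted p = 0.005069), miR-215-5p by 1.04 (SE 0.290, adjusted p = 0.01033), miR-21-5p by 1.04 and let-7b-5p by 1.01 (SE 0.384, adjusted p = 0.04825). The copy miR-26a-2-5p moved with miR-26a-1-5p. Sox9 High 3 was the lowest of its group in 33 of the 38 abundant members, a count not made over all offset entries. It alone of that group was from lane 1, the lane of all Sox9 Low libraries. Without Sox9 High 3 the number of called members was 16, without Sox9 High 1 it was 2, and without Sox9 High 2 or 4 it was 3. With lane as a term, or within lane 1 alone, no member was called, and lane 1 holds only Sox9 High 3 of its group. Libraries with 1 sample number share a code in their labels across the 3 fractions, and what the code stands for is not stated. With the sample number as a replicate block, over the 12 Sox9 libraries, 1 member was called between High and Low, against 4 without the block in the same libraries.

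No member was called between Sox9 High and Sox9 Negative libraries by limma, where 7 had an unadjusted p below 0.05 on the higher side and 1 on the lower side. The shares of all entries were 0% higher and 11.5% lower. Between Sox9 Low and Sox9 Negative libraries, 2 members were lower in Sox9 Low and 0 higher by limma (3 higher at an unadjusted p below 0.05), against 6.76% lower and 0% higher of all entries. Both were the copies of miR-26a-5p, at -1.21 (adjusted p = 0.0234). Sox9 Negative 3 and 4, from lane 4, both lay above Sox9 Negative 1 and 2, from lane 5, in 35 of the 38 abundant members. No such count was made over all offset entries. The number of members called between Sox9 Low and Sox9 Negative was 0 without Sox9 Low 3, Sox9 Negative 3 or Sox9 Negative 4. It was 4 without Sox9 Negative 2 and 5 without Sox9 Negative 1.

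A later start gives a new seed, which may equal that of another annotated miRNA. This was counted over distinct sequences with a RefSeq match whose annotated form was listed in every library. It was so for 1 of 9 with a mean ratio of 0.1 or more, which was miR-194-2-3p with the seed of miR-7085-5p. It was also so for 19 of 57 with a lower ratio. The matches named next are from all members with a RefSeq match. The +1 forms of 10 let-7 and miR-98 members with a RefSeq match on the 5p arm (let-7a-1, b, c-1, c-2, d, f-1, f-2, g and i, and miR-98) have the seed of miR-196a-5p and miR-196b-5p, which come from Hox clusters. Those of let-7e-5p and let-7d-3p match no other annotated seed. The +1 form of miR-27b-3p has the seed of miR-128-3p. The +1 forms of miR-17-5p, miR-20a-5p, miR-93-5p and miR-106b-5p have the seed of the miR-291a, miR-294, miR-295 and miR-302 miRNAs of embryonic stem cells. These are matches of letters, and no target was measured. In the set with ratios of 0.1 or more, the first base of the annotated form was C in 4, U in 3, A in 1 and G in 1. In the other set it was U in 32, A in 13, C in 11 and G in 1. Over the RefSeq table, U was first in 41%, A in 25.6%, C in 20.7% and G in 12.7% of 1674 mature sequences.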

How the data were processed

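Sorted mouse small-intestinal epithelial cells were profiled by small RNA sequencing (TriLink CleanTag kit, per the labels). The deposited table holds a normalized signal per miRNA or isomiR entry, and the authors' normalization was 1 scale factor per library: 100.0% of values were whole multiples of a step to within 0.001. The lowest listed value was 10 to 12 reads. Aligner, counter and treatment of near-identical miRNAs were not given in the sources used here. Build mm9 is named in the submitters' processing notes. Sequences are from RefSeq GRCm38.p6, matched by name.

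Of 34 small RNA libraries in the labels, 31 matched a column. The 3 Progenitor libraries were not analysed here, and 3 columns that match no sample were not used. Depth per library bounds each ratio, since a 0 allows up to 9 reads.

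Members and lists were chosen with earlier results of these data known. The log2 ratio to the entry without the suffix was computed with values raised to the pair's common floor (10 reads, or the file's own listing minimum, over the annotated form's reads in the least deep library for that pair). Entries needed the annotated form in every library, and at least 2 libraries above the floor, a condition added after the files had been seen. limma 3.58.1 (R 4.3.3) with trend and group means was fitted on 148 offset entries (57 members), with Benjamini-Hochberg adjustment over all 148. A call needed an adjusted p below 0.05 and a log2 difference of at least 1. Each population was set against the mean of the other 7, and the 3 Sox9 fractions against each other. Tables and figures used Python 3.11.15, pandas 2.3.3, numpy 2.4.6 and matplotlib 3.10.9. The fit was tested on simulated data. Alternatives were 2 pseudocounts without the floor, members listed in every library, subtraction of a median, leaving out libraries, a replicate block and lane.

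Named members were the 10 tested ones with the highest mean ratio, up to 10 whose +1 form exceeded the annotated form, up to 3 called in each direction per population, and the 10 widest called spans. The pairs of relatives, the counts over abundant members, the counts without members above the floor only in CD24Low and Lgr5 High, and miR-10b-5p, miR-30e-3p, miR-21-5p and miR-27b-3p were chosen after values were seen.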

Additional observations from a re-analysis of the deposited data

Results flagged for a closer look

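In groups of 4 to 10 libraries, the ratio of a named member was examined for a library far from the others. Of 177 such groups over 34 named members, 19 had one, where chance flags about 1 in 20 groups.

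Sox9 High 3 was far below the other 3 Sox9 High libraries for 10 members. Its ratio was 0.00938 for let-7a-1-5p (0.0202 to 0.0205 in the others), 0.0095 for let-7a-2-5p, 0.0113 for let-7f-1-5p, 0.0113 for let-7f-2-5p and 0.0190 for let-7g-5p. It was 0.00612 for miR-200c-3p, 0.000904 for miR-215-5p, 0.00333 for miR-26a-1-5p, 0.00332 for miR-26a-2-5p and 0.0027 for miR-30d-5p. These members are not independent, and this library carries the code HFD and is the only one of its group from lane 1. The part of diet code, lane and library was not tested.

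The other far values were scattered. miR-194-2-3p stood high at 0.192 in CD24Low 2 and at 0.330 in goblet 4, and miR-1943-5p at 1.90 in Sox9 Low 1. miR-200b-3p stood at 0.109 in Paneth 3, miR-200c-3p at 0.00332 in goblet 4 (22 reads) and miR-203-3p at 0.839 in Sox9 Negative 3. miR-3096-5p stood at 1.89 in Sox9 Low 2 and at 2.49 in Sox9 Negative 3, and miR-342-5p at 0.586 in Paneth 5.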

How the results depend on the processing

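The share of all offset entries called was counted for the main setting only. Counts of members under other settings, here and above, therefore do not set +1 forms apart from other offset entries. Counts of called members changed where the floor was dropped. With a pseudocount of 1 in its place and 91 members tested, 82 differed among the populations, 67 were called in CD24Low, 46 in Lgr5 High, 16 in Sox9 High, 20 in Sox9 Low (8 higher, 12 lower), 13 in Sox9 Negative (10 higher, 3 lower), 55 in goblet and 61 in Tuft libraries, 4 between Sox9 High and Negative and 0 between Low and Negative. With a pseudocount of 10 the counts were 82, 60, 51, 9, 18, 13, 52, 51, 5 and 10 in the same order. Among the 18 members listed in every library, 13 differed, with 7 called in CD24Low, 7 in Lgr5 High, 2 in Paneth, 2 in goblet and 4 in Tuft libraries, and 3 between Sox9 High and Low.

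With the median of all entries subtracted in each library, 8 were called in goblet, 5 in Paneth and 3 in Sox9 Low libraries, and 2 between Sox9 High and Low. With the members' median subtracted, an alternative chosen after seeing the data, 23 were called in CD24Low (4 higher, 19 lower) and 21 in Lgr5 High (5 higher, 16 lower), so the balance reversed, and 9 in goblet, 4 in Paneth and 2 in Sox9 Low, 2 between Sox9 High and Low and 0 between Low and Negative. Without the Tuft libraries, also chosen after seeing the data, 22 were called in goblet, 20 in Paneth and 8 in Sox9 Low. Without sample number 3 of the Sox9 fractions, 4 were called in Sox9 High, 16 between High and Low, 2 between High and Negative and 0 between Low and Negative. With lane as a term, or within lane 1, 0 were called between High and Low, both chosen after seeing the data.

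The Sox9 sample numbers share a label code across fractions whose meaning is not stated. They were not taken as pairs in the main fit. Residual correlations between libraries of 1 sample number ran between -0.539 and 0.408. Lane differed within Sox9 High and within Sox9 Negative, so these correlations cannot show whether the libraries are paired. With a replicate block over the 12 Sox9 libraries 1 member was called between High and Low, 1 between High and Negative and 0 between Low and Negative. Without the block these libraries gave 4, 1 and 0.

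Leaving out 1 library at a time gave 37 to 42 members differing among populations, 25 to 28 in CD24Low, 29 to 30 in Lgr5 High, 12 to 14 in Paneth, 13 to 15 in goblet and 13 to 15 in Tuft libraries. Sox9 fractions had 0 to 3 (High), 4 to 7 (Low) and 0 (Negative). It gave 2 to 16 between High and Low, 0 between High and Negative and 0 to 5 between Low and Negative. For single named members, 1166 of such values were on the same side of the threshold and 10 newly passed it. Under the other settings 324 were on the same side, 22 newly passed and 9 no longer passed. None reversed, but only comparisons with a direction could do so. The span of population means in the F-test has no sign, so values from that test could not reverse. A count model on recovered reads was not run. The cause of these changes was not tested. Depth limits ratios below the floor, most in Tuft libraries.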

Other observations

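Of members not tested, miR-101b-3p had ratios of 0.153 and 0.611 in Lgr5 High libraries, from 218 and 373 reads of the +1 form against 1429 and 610 reads of the annotated form. miR-17-5p had 0.457 in Sox9 Low 3, from 21 and 46 reads. Around miR-203-3p the -1 form had a mean ratio of 0.0220 and the +2 form 0.0121, against 0.948 for the +1 form. Around miR-192-5p the -1 form had 0.000366 and the +2 form 0.00432, against 0.155 for the +1 form.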
